A study of Mus musculus with 8 samples.

Results

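Ddx3x, Kdm6a, Eif2s3x, Pbdc1 and Kdm5c are genes that escape X inactivation in the mouse, and the replication timing of the 5 bins of 500 kb that hold them was examined on the active (Xa) and the inactive X chromosome (Xi). The 5 bins were taken by position from the 343 bins of chromosome X, each with 2 neighbouring bins on each side, which gave 25 bins. Repli-seq had been performed on 8 samples of female clonal mouse embryonic fibroblasts (MEFs), with 2 samples each of the G1-phase and the S-phase fraction of wild-type (wt, clone Wt2A1) and of SmcHD1 MommeD1 mutant cells (mut, clone Mut5A6). Both clones came from F2 embryos of M.m.domesticus FVB and M.m.Castaneus, and in both Xi is the castaneus and Xa the FVB chromosome. MommeD1 is a point mutation of SmcHD1 that acts as a null allele and was inherited through the germline.

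Each deposited track gives 1 score per bin, made from the ratio of S-phase to G1-phase reads, and a higher score is earlier replication. The methods describe Z-scores, but the highest score of an allele track lay between 6929 (wt Xi) and 11556 (mut Xa), where a Z-score over the same 343 bins cannot pass 18.5. The scores are therefore taken as deposited units whose centre and scale are not known. The replicates are pooled in it, the depth behind a bin is unknown, and no test across samples could be made. Each genotype is 1 clone, so genotype and clone cannot be told apart, and Xa against Xi cannot be told apart from FVB against castaneus. The libraries are genomic DNA, in which markers of a cell type and expression of the genes are not measured. Scores were ranked over 269 bins in which all 4 allele scores lay from −3 to 3 and none was a constant repeated 20 or more times. The percentile of a score is the share of ranked bins with a lower score in the same track, with ties (the bin itself included) counted at a weight of 0.5, so a higher percentile is earlier. As a scale for error, the SD of a bin from the mean of its 4 neighbours (251 bins) was used, which holds true differences of timing as well as noise. It was 0.791 on Xa and 0.535 on Xi of wt cells, and 0.80 on Xa and 0.864 on Xi of mut cells.

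X inactivation silences most genes of 1 X chromosome in female cells and delays the replication of its gene-rich domains to mid or late S phase. A small set of genes escapes and stays expressed from Xi. Among them Ddx3x encodes a DEAD-box RNA helicase, Eif2s3x the gamma subunit of the translation initiation factor eIF2, Kdm6a (also called Utx) a demethylase of H3K27 and Kdm5c a demethylase of H3K4. These 4 genes have a homologue on the Y chromosome. SmcHD1 is a non-canonical SMC protein that is enriched on Xi and contributes to its silencing.

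The genes take up a small part of the bins that stand for them. On mm10 (GENCODE M21), Ddx3x lies at chrX:13280970-13294052 and covers 2.62% of its bin, which starts at 13000001. Kdm6a, at chrX:18162575-18279936, covers 23.5% of the bin from 18000001 and is the longest of the 5 genes. Eif2s3x, on the minus strand at chrX:94188707-94212862, covers 4.83% of the bin from 94000001. Pbdc1, at chrX:105079756-105117090, covers 7.47% of the bin from 105000001, and Kdm5c, at chrX:152233020-152274535, covers 8.30% of the bin from 152000001. The bins held between 3 and 8 protein-coding gene starts, where the median over ranked bins was 2. A score therefore describes the surroundings of an escape gene and not the gene alone.

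The promoters of the 5 genes contained 25 (Ddx3x), 21 (Kdm6a), 21 (Eif2s3x), 20 (Pbdc1) and 13 (Kdm5c) CpG sites in 300 bases, from 250 bases before to 50 bases after the start (RefSeq, GRCm38.p6), against a median of 7 over 32851 promoters. Of all promoters, 18.4% had at least as many CpG sites as Ddx3x and 37.9% at least as many as Kdm5c. The promoters of 3 genes are shown as examples. Among the 5 bins, that of Ddx3x had the largest lead of Xa over Xi in wt cells. That of Pbdc1 had Xi furthest ahead of Xa in wt cells, and that of Kdm5c had the earliest Xi in mut cells. CpG sites are in capitals and every sequence reads 5′ to 3′ on the plus strand, which is the strand of all 3 genes.
Ddx3x, chrX:13280772-13281071: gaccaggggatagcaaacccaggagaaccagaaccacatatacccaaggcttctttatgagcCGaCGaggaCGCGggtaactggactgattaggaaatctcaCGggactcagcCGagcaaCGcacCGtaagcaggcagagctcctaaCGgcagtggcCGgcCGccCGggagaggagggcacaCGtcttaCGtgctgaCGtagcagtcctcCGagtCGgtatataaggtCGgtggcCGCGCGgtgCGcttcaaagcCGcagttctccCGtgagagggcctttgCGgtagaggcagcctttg
Pbdc1, chrX:105079506-105079805: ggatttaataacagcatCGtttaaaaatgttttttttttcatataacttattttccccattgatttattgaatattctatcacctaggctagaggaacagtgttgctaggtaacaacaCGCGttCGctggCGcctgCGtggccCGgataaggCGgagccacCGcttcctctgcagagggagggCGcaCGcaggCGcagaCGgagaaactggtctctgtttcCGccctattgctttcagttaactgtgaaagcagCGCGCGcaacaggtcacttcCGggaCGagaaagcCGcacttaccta
Kdm5c, chrX:152232977-152233276: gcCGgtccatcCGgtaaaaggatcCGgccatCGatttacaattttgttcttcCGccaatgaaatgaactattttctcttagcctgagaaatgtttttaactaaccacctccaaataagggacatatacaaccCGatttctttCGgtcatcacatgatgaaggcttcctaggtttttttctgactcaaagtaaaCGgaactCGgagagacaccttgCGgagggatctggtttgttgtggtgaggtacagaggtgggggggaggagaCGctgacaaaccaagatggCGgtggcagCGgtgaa
The start of 5530601H04Rik, a further escape gene on the opposite strand, lies 147 bases from that of Pbdc1, so the Pbdc1 promoter printed here spans both starts. The letters AAGATGG, on either strand, occurred in the Eif2s3x and Kdm5c promoters and in 6.34% of all promoters. Timing scores of 500 kb do not resolve promoters, and these sequences describe the genes only.

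The 5 bins did not share a timing pattern in wt MEFs. On wt Xi, Kdm6a had a score of −0.279 (percentile 89.8), Pbdc1 −0.353 (87.9) and Eif2s3x −0.540 (81.6). These 3 of 5 bins lay above percentile 75 of wt Xi, as did 24.9% of ranked bins. Kdm5c, with −0.916 (55.4), was near the middle of the chromosome, and Ddx3x, with −1.33 (20.6), was among the later bins. With a running mean of 3 bins Ddx3x was at percentile 45.2, near the middle as well. The median percentile of the 5 bins was 81.6. Each bin in this order differed from the next by less than the SD of 0.535, whereas Kdm6a and Ddx3x, at its ends, differed by more.

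Xa gave another order. On wt Xa, Ddx3x scored 1.98 (percentile 97.2, rank 8 of 269), Eif2s3x 1.13 (88.7) and Kdm5c 0.779 (78.4). Kdm6a and Pbdc1 were later, at −0.692 (41.4) and −1.18 (22.9). The 2 bins that were earliest on Xi were thus the latest of the 5 on Xa.

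**Figure D1:**
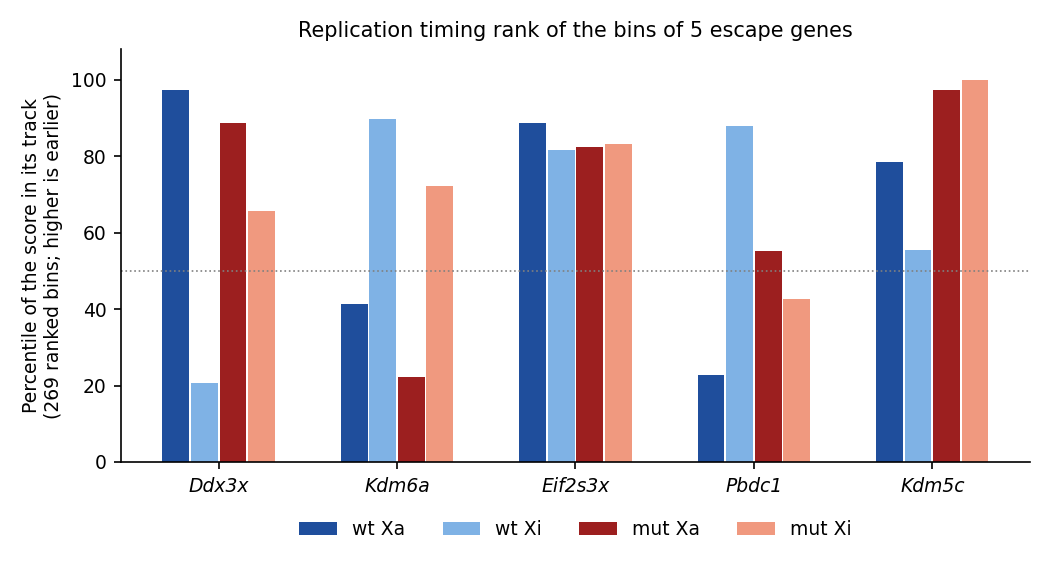
Percentile of the score of each gene's bin within its own track, over 269 ranked bins (vertical axis, 0 to 100, higher is earlier), on Xa and on Xi, in wt and in mut cells (bars, 1 pooled value each). In wt cells the Xi bar stands above the Xa bar for Kdm6a and Pbdc1 and far below it for Ddx3x; in mut cells the Xi bar of Kdm5c is at 100 because its score is beyond the limit for ranked bins (95.8 with no limit).

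Xa minus Xi in wt cells ran from 3.31 at Ddx3x to −0.823 at Pbdc1. The difference at Ddx3x ranked 4 among the ranked bins (percentile 98.7). It was 1.69 at Kdm5c and 1.67 at Eif2s3x, close to each other and above the chromosome's median of 0.650. Kdm6a, with −0.413 (percentile 15.4), and Pbdc1 (6.13) had Xi ahead of Xa in these single bins. The gap at Kdm6a was smaller than its SD of 0.805, and with a running mean of 3 bins both turned, to 0.406 at Kdm6a and 0.277 at Pbdc1, so that Xa was ahead in all 5. The difference was above 1 in 3 of the 5 bins, against 36.4% of ranked bins, and above 0 in the same number, against 75.8%. Since the centre and scale of each track are not known, ranks were also set side by side. The percentile on Xi minus that on Xa was −76.6 points at Ddx3x, −23.0 at Kdm5c and −7.06 at Eif2s3x, and it was 48.3 points at Kdm6a and 65.1 at Pbdc1. The order of Xa and Xi by rank was thus that by score in all 5 bins.

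In mut cells, Xi of the Kdm5c bin had a score of 3.20, after −0.916 in wt cells. This score lay outside the limit of 3, so the bin is not among the 269 ranked bins and has a percentile of 100 against them by construction. Among all 320 bins of this track without a repeated constant, whatever their score, 13 scored higher (percentile 95.8). The Xi change (mut minus wt) of 4.12 had rank 3 against the ranked bins, in which the SD from the neighbours was 1.02. Bins beyond the limit, which this rank leaves out, held larger changes, such as 15.0 in the bin from 4000001 and 25.1 in that from 112000001. On Xa the same bin scored 0.779 in wt and 1.61 in mut cells, and unsplit reads, which have their own scale, gave 0.223 and 0.336. The gap between Xa and Xi was 1.69 in wt cells and −1.59 in mut cells, where Xi was ahead of Xa. With a running mean of 3 bins the Xi change was 2.10 and the gap in mut cells −0.231.

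At Ddx3x the Xi score was −1.33 in wt and −0.614 in mut cells, and the percentile moved from 20.6 to 65.6. Its Xa score was 1.98 in wt and 0.844 in mut cells, and the gap of Xa over Xi was 3.31 and 1.46. Xi of this bin was therefore still behind Xa in mut cells. The Xi change of 0.721 was smaller than the SD of 1.02. The Xa change of −1.13 was larger than its own SD of 0.839, and by score larger than the Xi change. By rank Xi differed more between the clones, by 45.0 percentile points, with −8.55 points on Xa. The Xa percentiles, 97.2 and 88.7, lie near the top of the tracks, where a given change of score moves a rank less.

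Eif2s3x kept a similar rank on all 4 allele tracks, between percentiles 81.6 and 88.7. Its Xi score was −0.540 in wt and 0.0541 in mut cells, an Xi change of 0.594. Its Xa score was 1.13 and 0.567, and the gap of Xa over Xi 1.67 and 0.513, the second of which was below its SD of 1.06 and turned to −0.369 with the tracks centred and rescaled.

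Kdm6a and Pbdc1 had the 2 negative Xi changes. The Xi score of Kdm6a was −0.279 in wt and −0.446 in mut cells, and that of Pbdc1 was −0.353 and −1.09. Neither change, −0.167 and −0.735, exceeded the SD of 1.02, and that of Pbdc1 turned to 0.326 with a running mean of 3 bins. On Xa, Kdm6a scored −0.692 in wt and −1.15 in mut cells, so Xi was ahead of Xa in the single bin in both genotypes, by 0.413 and 0.707, less than the SDs of 0.805 and 1.06. With the running mean Xa was ahead in both, by 0.406 and 0.416. The Xa score of Pbdc1 was −1.18 in wt and −0.313 in mut cells, so Xi was ahead of Xa in wt cells and Xa ahead of Xi, by 0.775, in mut cells. This order held for the single bin but not for the running mean, in which Xa was ahead in both genotypes, by 0.277 and 0.611. By rank, Xi minus Xa in mut cells was 50.2 points at Kdm6a, 2.60 at Kdm5c, 0.743 at Eif2s3x, −12.6 at Pbdc1 and −23.0 at Ddx3x, so at Eif2s3x the order by rank was not that by score.

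Over the 5 bins, the median Xi change was 0.594, where the median of ranked bins was 0.00300. It was 0.214 without Kdm5c, which the limit leaves out of the ranked bins, or without Ddx3x, and 0.277 without Eif2s3x. The change was above 1 in 1 bin, Kdm5c, against 15.6% of ranked bins, and above 0 in 3 bins, against 50.2%. The median gap of Xa over Xi was 1.67 for wt and 0.513 for mut cells, with medians over ranked bins of 0.650 and 0.468. For wt cells it was 0.628 without Ddx3x or Kdm5c and 0.640 without Eif2s3x. Its direction in mut cells was not settled, since it was −0.0972 without Ddx3x or Pbdc1, 0.0336 without Eif2s3x and −0.369 with the tracks centred and rescaled. In mut cells the gap was above 1 in 1 bin, Ddx3x, against 27.9%, and above 0 in 3 bins, against 69.1%. On mut Xi the percentiles ran from 42.6 at Pbdc1 to 100 at Kdm5c, with a median of 72.3; the value of Kdm5c is 95.8 with no limit on the score. With the running mean Kdm6a moved from 72.3 to 27.0 and Pbdc1 from 42.6 to 76.0 on mut Xi. Above percentile 75 of mut Xi lay 2 of the 5 bins, Kdm5c and Eif2s3x, against 24.9% of ranked bins. This count depended on the setting. With the running mean Ddx3x (81.2) and Pbdc1 (76.0) lay above percentile 75 too, beside Eif2s3x (86.4) and Kdm5c (98.5). Against bins with wt Xa above 0, Eif2s3x was at 70.2, and Kdm5c alone lay above percentile 75. With 5 bins, 1 bin more or fewer moves a share by 20 percentage points.

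**Figure D2:**
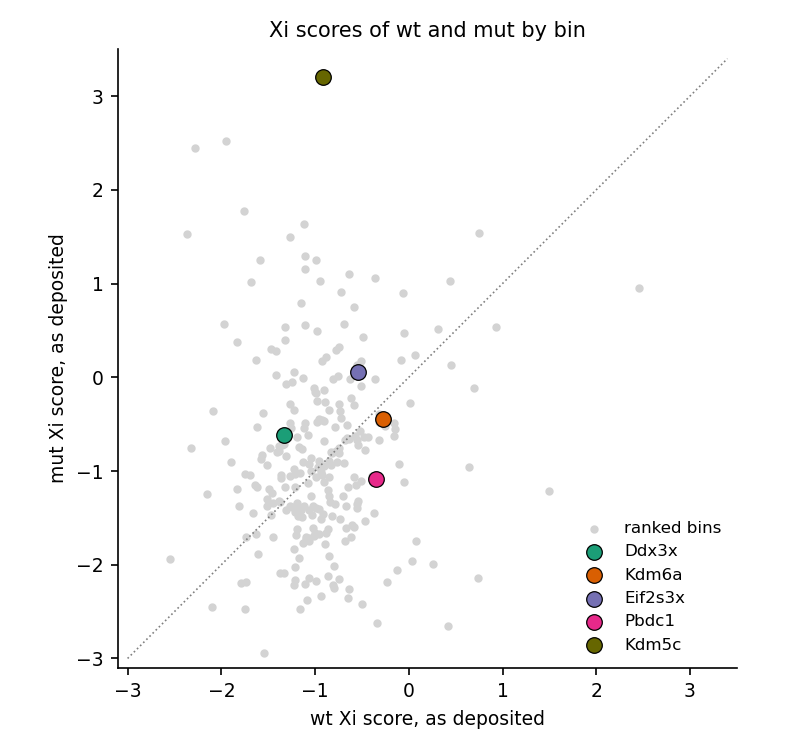
Score of each ranked bin on wt Xi (horizontal axis) and mut Xi (vertical axis), both as deposited, with the 5 escape bins coloured and the line of equal scores dotted. Kdm5c, at −0.916 and 3.20, lies beyond the limit of 3 that the ranked bins were held to, and the other 4 lie within the cloud.

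Reads not split by allele hold both chromosomes and do not depend on SNPs. How much of them comes from Xa and from Xi in each clone was not measured here, and the paper corrected its RNA counts for copy number of chromosomes. The 5 bins scored between 0.0311 (Kdm6a) and 0.271 (Ddx3x) in wt and between 0.0343 (Pbdc1) and 0.353 (Eif2s3x) in mut cells. Ddx3x, Eif2s3x and Kdm5c were early there, at percentiles 99.1, 96.5 and 93.3 in wt and 97.6, 98.0 and 96.3 in mut cells. Kdm6a was at 52.6 and 66.0, and Pbdc1 at 53.7 and 49.6. The bins that were late on wt Xa were thus also the later of the 5 in unsplit reads. The change from wt to mut was largest at Kdm5c, 0.113 (percentile 90.0), followed by 0.107 at Eif2s3x, 0.0802 at Ddx3x and 0.0788 at Kdm6a, and was −0.00430 at Pbdc1.

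The neighbouring bins showed how local these values were. On wt Xi, the gene bin exceeded the mean of its 4 neighbours by 0.463 at Pbdc1 and by 0.425 at Kdm6a, less than the SD of 0.535. At the other genes the departure was 0.109 (Eif2s3x), 0.0590 (Kdm5c) and −0.0805 (Ddx3x). Kdm6a was the only member above all its neighbours on wt Xi, 1 of 5, against 22.3% of the 251 bins with neighbours. On wt Xi 0 of the 5 bins departed by more than the SD, in either direction, against 23.5% of the 251 bins. On wt Xa the departure was 1.57 at Ddx3x, 0.895 at Eif2s3x and −1.72 at Pbdc1, beyond the SD of 0.791 as in 28.7% of bins, and −0.745 at Kdm6a and 0.382 at Kdm5c. On mut Xa, Kdm5c (1.42) and Pbdc1 (−1.29) were beyond the SD of 0.80, against 29.9% of bins. On mut Xi, Kdm5c (3.14), Pbdc1 (−0.979) and Kdm6a (0.874) were beyond the SD of 0.864, against 28.3% of bins. With a running mean of 3 bins these 3 departures were 0.712, −0.00415 and −0.0806. A running mean shares bins between a gene bin and its neighbours, which tends to shrink a departure. The SD of such departures was not computed. On wt Xa, 3 of the 5 bins (Ddx3x, Eif2s3x and Kdm5c) were local maxima, against 18.3%. On mut Xa and on mut Xi only Kdm5c was, 1 of 5, against 19.5% and 20.7%. In unsplit reads it was 2 of 5 in wt cells (Ddx3x and Kdm5c), against 17.9%, and 3 of 5 in mut cells, with Eif2s3x, against 17.1%.

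In the window of Kdm5c, the wt Xi scores were flat, from −1.11 to −0.853, whereas on mut Xi the gene bin stood 3.14 above the mean of its neighbours. The Xi change was above 0 in all 5 bins, against 50.2% of ranked bins, and between 0.50 and 1.67 in the 4 neighbours, whose mean was 1.04. The bin holds Smc1a, Iqsec2, Hsd17b10, Ribc1, Kantr, Tspyl2 and Gpr173 beside Kdm5c, and the bin before it starts Huwe1 and Phf8. The high score is that of a single bin, and the number of reads behind it is not known.

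Around Ddx3x, the Xi change was largest not in the gene bin but in the bins before it. It was 2.21 in the bin of Bcor and 1.69 in the bin of Atp6ap2 and Med14, then 0.721 in the gene bin and −0.267 in the next, with the start of Cask. That next bin was also the earliest of the window on wt Xi, with −0.250 (percentile 90.1). The 2 bins with the higher changes are the ones in which mut Xi was above 0, at 0.378 and 0.279. Around Kdm6a all 5 bins had negative Xi changes, from −0.810 to −0.0790, with a mean of −0.526, where 50.2% of ranked bins were above 0.

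Around Eif2s3x the Xi change was above 0 in 4 of 5 bins, against 50.2%, with a mean of 0.639. The window of Pbdc1 held a step on wt Xi. The 2 bins before the gene and the gene bin had scores of −0.315, −0.366 and −0.353 (percentiles 89.4, 87.2 and 87.9), and the next 2, with the starts of Atrx and of Pgk1, had −1.36 (19.9) and −1.22 (28.8). On wt Xa the 5 bins had 0.636, −0.939, −1.18, 0.865 and 1.60, so the bin before the gene and the gene bin were later than the bins on both sides. Over all 25 bins the Xi change was above 0 in 16, against 50.2% of ranked bins, and above 1 in 8, against 15.6%.

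**Figure D3:**
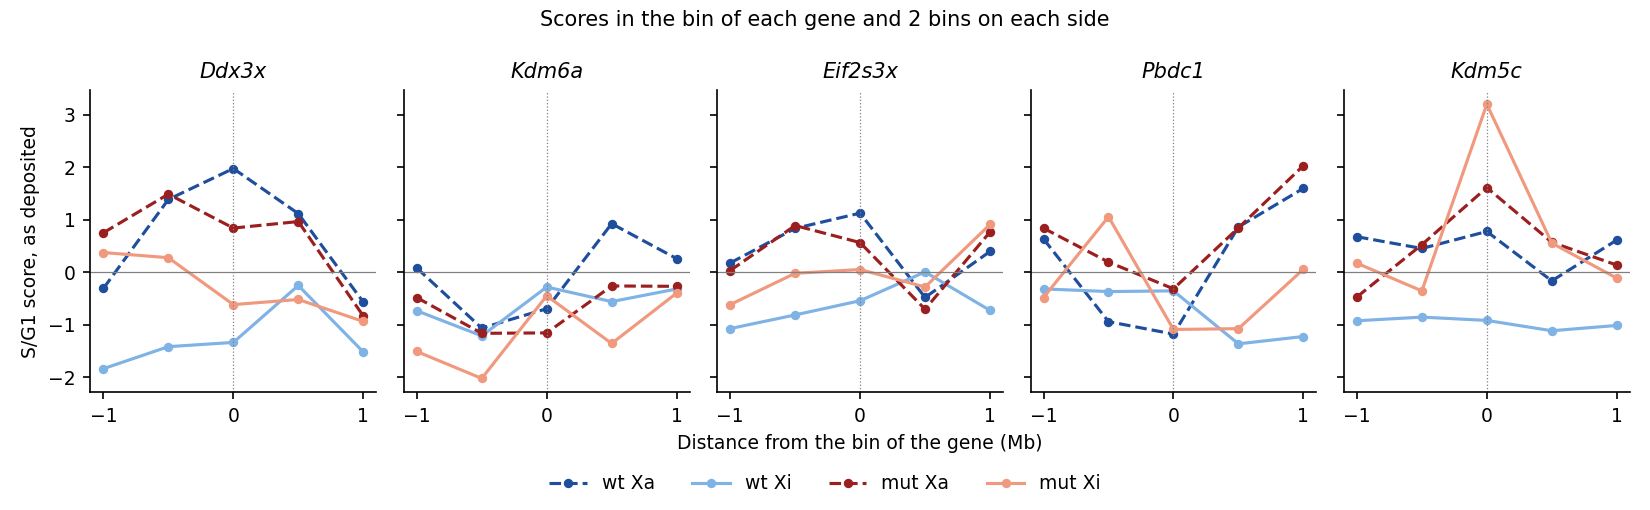
Deposited scores of Xa (dashed) and Xi (solid), for wt (blue) and mut (red) cells, in the bin of each gene and 2 bins on each side (horizontal axis, distance in Mb; 1 pooled value per point). Mut Xi reaches 3.20 in the single bin of Kdm5c, and wt Xi is −0.353 in the bin of Pbdc1 and −1.36 in the next.

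A further 3 lists of genes were placed in bins by their start. Of 9 other escape genes, in 8 bins, wt Xi percentiles had a median of 89.4 and 5 bins lay above percentile 75, against 24.9% of ranked bins. Their Xi change had a median of −0.199 and was above 0 in 3 of 8 bins, against 50.2%. Over the 7 bins that are not members its median was −0.0782. Xist, the RNA that coats Xi, and Jpx share a bin with a wt Xi score of 0.443 (96.8), Ftx had 0.454 (97.2) and Mid1, at the pseudoautosomal boundary, 0.926 (99.1). Firre followed with −0.163 (90.9). Utp14a was late, with −1.30 (24.0), and so closest to Ddx3x, while Shroom4 and Car5b were near the middle (48.9 and 50.7). The other bin above percentile 75 is that of Pbdc1, which 5530601H04Rik shares. Thus both early and late bins occurred on wt Xi among escape genes beyond the 5 members.

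The list of 5 genes taken as silenced on Xi held Hprt, Pgk1, Atrx, G6pdx and Huwe1, each in a bin of its own. Whether they are silenced was not measured in these libraries, and the paper reports Xi expression of the majority of Xi genes in mut cells. The wt Xi percentiles of these 5 bins ran from 19.9 to 60.4 with a median of 39.6, and none lay above percentile 75, against 24.9%. Their wt Xa percentiles ran from 72.7 to 94.6, and wt Xa minus Xi was between 1.31 and 2.82. The Xi change was between 0.225 and 2.26 and so above 0 in all 5 bins, against 50.2%. By these values Ddx3x and Kdm5c lay within the wt Xi range of the silenced genes, and Kdm6a, Pbdc1 and Eif2s3x above it. The bins of Atrx, Pgk1 and Huwe1 are neighbours of members, so the lists are not independent.

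Genes that escape in human but are silenced in the mouse share bins with members. Usp9x starts in the bin of Ddx3x, Zfx in that of Eif2s3x and Smc1a in that of Kdm5c. The other 2, Uba1 and Rps4x, had wt Xi scores of −1.31 (22.9) and −0.880 (58.6) and Xi changes of 1.24 and 1.10.

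**Figure D4:**
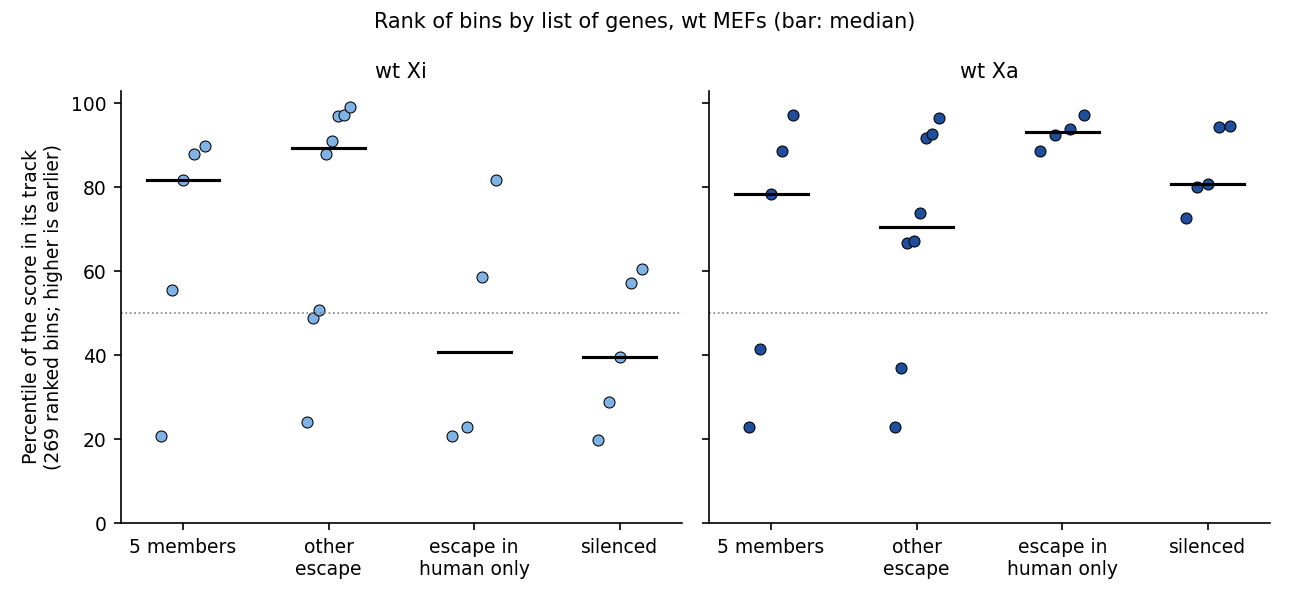
Percentiles of bins on wt Xi (left) and wt Xa (right) by list of genes (1 point per bin, horizontal bar at the median; the unranked bin of Kdm5c is drawn among the members and left out of the third list). On wt Xi the medians are 81.6 for the 5 members (84.8 without Kdm5c), 89.4 for other escape genes, 40.7 for genes that escape in human only and 39.6 for silenced genes; 2 points of the third list and 1 of the second are bins of members.

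For each member, the bin most like it outside the 25 bins was found by the distance between percentiles on the 4 allele tracks (245 candidate bins). Ddx3x was closest to the bin of Rtl9 and Chrdl1 from 143000001, at a distance of 12.9 percentile points, and Kdm5c to the adjoining bin from 142500001, with Tmem164 and Ammecr1, at 15.8. Eif2s3x was closest to the bin of Bclaf3, Sh3kbp1 and Map3k15 from 159500001, at 14.5. Kdm6a and Pbdc1 had no bin as close, the nearest being those of Ids and Tmem185a from 70000001 (23.7) and of Lamp2, Zbtb33 and several Rhox genes from 38000001 (24.2). These likenesses rest on 4 values per bin.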

How the data were processed

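Per the labels and methods, G1-phase and S-phase fractions of asynchronous cultures were sorted by DNA content and sequenced from PCR-free libraries. The authors aligned reads with Bowtie2 (version not given in the sources used here) to an mm10 sequence in which SNPs were masked, and assigned them to alleles with SNPsplit. The deposited score of a 500 kb bin comes from reads in S over reads in G1, after scaling by read number. The methods name Z-scores, but the highest allele scores (up to 11556) are larger than a Z-score over these bins can be. Which bins set its mean and SD is not given in the sources used here, nor is the scale of the deposited score of unsplit reads. The 2 replicates of each fraction are pooled in all 6 tracks. Titles ending in G2 were read as replicate 2 of the G1-phase fraction, since only G1 and S fractions were sorted. The description names both parental chromosomes Xa, so Xa and Xi were taken from the names of the deposited tracks and from the methods.

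From these, percentiles, differences between tracks and departures from 4 neighbours were computed in Python 3.11.15 (numpy 2.4.6, pandas 2.3.3) and tested on simulated data. Of 343 bins, 32 held a constant found 20 or more times in an allele track, and these and 42 others beyond −3 to 3 were not ranked. Of the 25 bins of the windows, 24 were ranked. Genes came from GENCODE M21 on the same build. All 5 members are named with every allele score, and the lists by counts and medians; 1 gene of the list of silenced genes is not reported here. The members and lists were chosen with earlier results of these data known. The alternatives covered the limits on the score, a running mean of 3 bins, centring on the median with rescaling by the median absolute deviation, the number of neighbours, a background of bins with wt Xa above 0, and leaving out each member.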

Additional observations from a re-analysis of the deposited data

How the results depend on the processing

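For 7 medians over the 5 bins, 74 alternatives were run, 35 of which left out 1 member. Of the 39 other alternatives, 9 left the median as it was and 3 turned its sign. A running mean of 3 bins turned no median but turned the wt gap of Kdm6a and Pbdc1, the mut gap of Kdm6a, the Xi change of Pbdc1, and the departure from the neighbours of Ddx3x and Kdm6a on both Xi tracks and of Pbdc1 on wt Xi. With tracks centred on their median and divided by their median absolute deviation, the median gap of Xa over Xi was 0.649 for wt and −0.369 for mut cells, in the rescaled unit; the cause was not tested. The median of mut Xi minus its neighbours was −0.181 with the limit applied within each track and with limits from −2 to 2, where Kdm5c is left out. The direction of this median and of Xa minus Xi in mut cells is therefore not settled. Without 1 member, Xa minus Xi ranged from 0.628 to 1.68 in wt and from −0.0972 (without Ddx3x or Pbdc1) to 0.644 in mut cells, mut Xi minus its neighbours from −0.181 (without Kdm6a or Kdm5c) to 0.464, and the Xi change from 0.214 to 0.657, all above 0. The median percentile stayed above 50 in all alternatives, but against bins with wt Xa above 0 that of wt Xi was 73.9 and that of mut Xi 55.0. Against these bins the members ran from 11.5 (Ddx3x) to 84.4 (Kdm6a) on wt Xi, with Kdm5c at 44.0. On mut Xi they ran from 21.1 (Pbdc1) to 100 (Kdm5c), with Ddx3x at 47.2. No paired analysis was possible because each bin has 1 pooled value per track, and for the same reason no replicate could be left out. Unknown depth limits every single-bin value.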

Other observations

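The 10 earliest of the 269 ranked bins of wt Xi were examined after their values were seen. They included 3 of the 8 bins of other escape genes. The bins of Mid1 (rank 3), Ftx (rank 8) and Xist with Jpx (rank 9) were these, and next to Mid1 the bin of Amelx and Hccs had rank 4, with a wt Xi score of 0.748. None of the bins of the 5 members was among these 10. With so small a share of the 269 bins taken, this says little about the members. Rank 1, from 25500001 with Gm1993, had scores of 2.46 on wt Xi and −2.62 on wt Xa, and rank 2, from 44500001 with Dcaf12l1, had 1.49 and −0.336. The bins on both sides of rank 1 were not ranked, nor was the bin after rank 2, which had 14.8 on mut Xi. These ranks therefore lie beside bins with repeated constants or scores beyond the limit, and the depth there is not known. The bin of Dcaf12l2, from 44000001, had rank 5 on wt Xi with 0.739 and had −2.15 on mut Xi. Of the 10 bins, those from 68000001 and from 113500001 held no start of a protein-coding gene. The bin after the one from 113500001 was not ranked either.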
